A study of Mus musculus with 11 samples.

Results

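The comparison described here is the interaction between heat shock and YAP/TAZ knockdown: for each gene, the heat response under YAP/TAZ siRNA minus the heat response under control siRNA. It drew on RNA sequencing of B16-OVA, an ovalbumin-expressing melanoma line from C57BL/6J mice, in 11 libraries. The cells were transfected with control siRNA or with pooled siRNAs that target YAP and TAZ together, and 48 h later were kept unheated or were held at 45 °C for 1 h and returned to 37 °C for 6 h. The 4 groups were unheated control siRNA cells (3 libraries), heated control siRNA cells (2 libraries, replicates 1 and 3), unheated YAP/TAZ siRNA cells (3 libraries) and heated YAP/TAZ siRNA cells (3 libraries). Replicate 2 of that heated control group was not analysed here. All 4 groups were transfected with siRNA, the knockdown was a transient pool in 1 cell line, and the labels do not say whether replicates were separate cultures, and p-values then cover only the spread among these libraries, which may be technical. Members were chosen by level alone: all genes with at least 1 FPKM (fragments per kilobase of gene, scaled by how many fragments of a library were mapped) in at least 2 of the 11 libraries, which gave 12626 of the 54686 entries of the gene table. That rule and the gene lists used below were set with earlier results of these data known.

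YAP and TAZ are co-activators that the Hippo kinase cascade keeps out of the nucleus and that switch on genes through TEAD transcription factors, which often share enhancers with AP-1 factors. Heat shock unfolds proteins, releases heat shock factor 1 (HSF1) from chaperones and lets it switch on genes for chaperones and ubiquitin, while most other transcription falls. Chaperones of the Hsp70, Hsp40, Hsp90 and small heat shock protein families then hold or refold damaged proteins, and cells with lasting damage use p53, the integrated stress response and AP-1 factors to stop division, repair or die.

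The libraries held an estimated 30100000 to 43500000 fragments, read from the smallest steps between low values, and 20000 to 23242 entries above 0. Heated control libraries had the most entries above 0 (23173 and 23242) and heated YAP/TAZ siRNA libraries 21534 to 21662, at 33800000 to 36200000 and 30100000 to 38800000 fragments. All 8 melanocyte markers checked passed the level filter, with a summed level of 6287 to 8277 FPKM per library. Of the markers of other cell types, 0 of 7 keratinocyte and 0 of 7 endothelial genes passed it, as did 1 of 9 lymphocyte, 2 of 10 macrophage and 2 of 9 fibroblast genes. No marker of those cell types exceeded 4.83 FPKM (Cd68). The defining markers Dcn, Aif1, C1qa, C1qb, Cd3d, Cd8a, Ms4a1, Nkg7, Ptprc, Cdh5, Emcn, Krt10, Dsg3 and Ivl were listed at 0 in all 11 libraries. The summed macrophage markers nevertheless moved with heat and siRNA, at 2.35 to 2.64 FPKM in unheated control, 6.33 and 6.77 in heated control, 1.57 to 2.05 in unheated YAP/TAZ siRNA and 2.86 to 3.43 in heated YAP/TAZ siRNA libraries. The lymphocyte and endothelial sums were also highest in heated control libraries, at 1.89 and 1.92 and at 1.28 and 1.63 FPKM, and at most 0.365 and 0.293 in the other groups. Their part in the results below was not tested.

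Both targeted genes were lower in each of the 6 YAP/TAZ siRNA libraries than in any of the 5 control siRNA libraries, and neither had a called interaction. Yap1, which encodes YAP (chr9:7931999-8004596, GRCm38, minus strand), averaged 9.56 ± 5.31 FPKM (SD, n = 3) unheated and 8.44 ± 3.50 (SD, n = 2) heated under control siRNA, and 2.77 ± 0.240 (SD, n = 3) and 2.38 ± 0.193 (SD, n = 3) under YAP/TAZ siRNA. Wwtr1, which encodes TAZ (chr3:57455649-57575910, minus strand), averaged 6.62 ± 1.44 and 6.98 ± 2.10 FPKM under control siRNA and 1.77 ± 0.104 and 1.56 ± 0.158 under YAP/TAZ siRNA, with the same numbers of libraries. The interaction was -0.05 for Yap1 with a 95% interval of -1.08 to 0.97, and -0.17 for Wwtr1 with an interval of -0.70 to 0.35. Across the 5 control libraries Yap1 ranged from 5.79 to 15.6 FPKM.

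Heat responses differed between the siRNAs at 4791 of 12626 genes (37.9% of the genes tested). These and all later heat responses and interactions are differences of log2(FPKM + 1), tested with limma on all 11 libraries and called at a Benjamini-Hochberg adjusted p under 0.05. The interaction was higher at 3102 genes (24.6%) and lower at 1689 (13.4%), so 64.7% of the called differences were positive. A positive value means a larger rise or a smaller fall under YAP/TAZ siRNA. The positive share was 55.4% with scaling to a common total, 55.5% with scaling by the median of ratios and 54.8% with quantile normalization. Without the level filter it was 46.1%, so the larger part was then negative. With the trend of each library along gene length taken off, an alternative chosen after seeing the data, that share was 48.95%. Over all genes tested the median heat response was -0.16 with control and -0.09 with YAP/TAZ siRNA, and the median interaction was 0.11. Scaling by the median of ratios moved these 3 medians to -0.03, 0.00 and 0.06, and scaling to a common total moved them to -0.22, -0.22 and 0.03. In bulk RNA, fewer cells of a kind and less RNA per cell cannot be told apart.

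Heat raised 1560 genes (12.4%) and lowered 4654 (36.9%) under control siRNA, and raised 2347 (18.6%) and lowered 3999 (31.7%) under YAP/TAZ siRNA. Genes were placed in a class only where calls allowed it. A response was lost where it was called under control siRNA, not called under YAP/TAZ siRNA and the interaction was called. It was reduced or enlarged where both responses were called in 1 direction and differed, kept where both were called in 1 direction and the difference was not, gained where only the YAP/TAZ siRNA response was called and the difference was too, and reversed where both were called in opposite directions and differed. Of responses that were a rise, 493 genes were lost (3.90% of the genes tested), 181 reduced (1.43%), 314 kept (2.49%), 851 gained (6.74%), 78 enlarged (0.618%) and 324 reversed from a rise to a fall (2.57%). Of responses that were a fall, 1177 were lost (9.32%), 522 reduced (4.13%), 1701 kept (13.5%), 543 gained (4.30%), 112 enlarged (0.887%) and 406 reversed from a fall to a rise (3.22%). A kept response only means that no difference was called. Of the lost rises 160, and of the reduced rises 78, passed the level filter only through the heated control libraries, so those genes had to differ. Likewise 42 of the gained falls and 37 of the kept falls passed it only through the unheated YAP/TAZ siRNA libraries. Of the lost falls 14 did so only through the unheated control libraries. For these genes the filter favoured a fall under the siRNA concerned. Where genes are ranked below by their difference, the ranking covers genes with at least 5 FPKM in a group and calls in all 11 fits that leave out 1 library. Without replicate 1 of the heated control cells, 476 of all genes were reversed in place of 730.

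Few of the genes that heat raised most under control siRNA were placed in the kept class. Of 475 genes with a called rise of at least 2-fold under control siRNA, 213 lost it, 150 had a smaller rise, 40 fell instead, 36 kept it and 8 had a larger rise, while 28 were called under control siRNA only, with no called difference. Of all 1560 called rises, 31.6% were lost, 11.6% reduced, 20.8% reversed and 20.1% kept. Some of the 475, such as Pgf, Ccdc81 and Isg20, passed the level filter only through the heated control libraries, so these had to differ. Of 298 genes with a called fall of at least 2-fold, 58 lost it, 133 had a smaller fall, 78 kept it, 9 rose instead and 3 had a larger fall, and 17 were called under control siRNA only. Of all 4654 called falls, 25.3% were lost, 11.2% reduced, 36.5% kept and 8.72% reversed. Choosing genes by a large response under control siRNA favours a smaller one under YAP/TAZ siRNA, because the same 5 control libraries enter the difference, so these counts describe the genes and are no test.

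**Figure D1:**
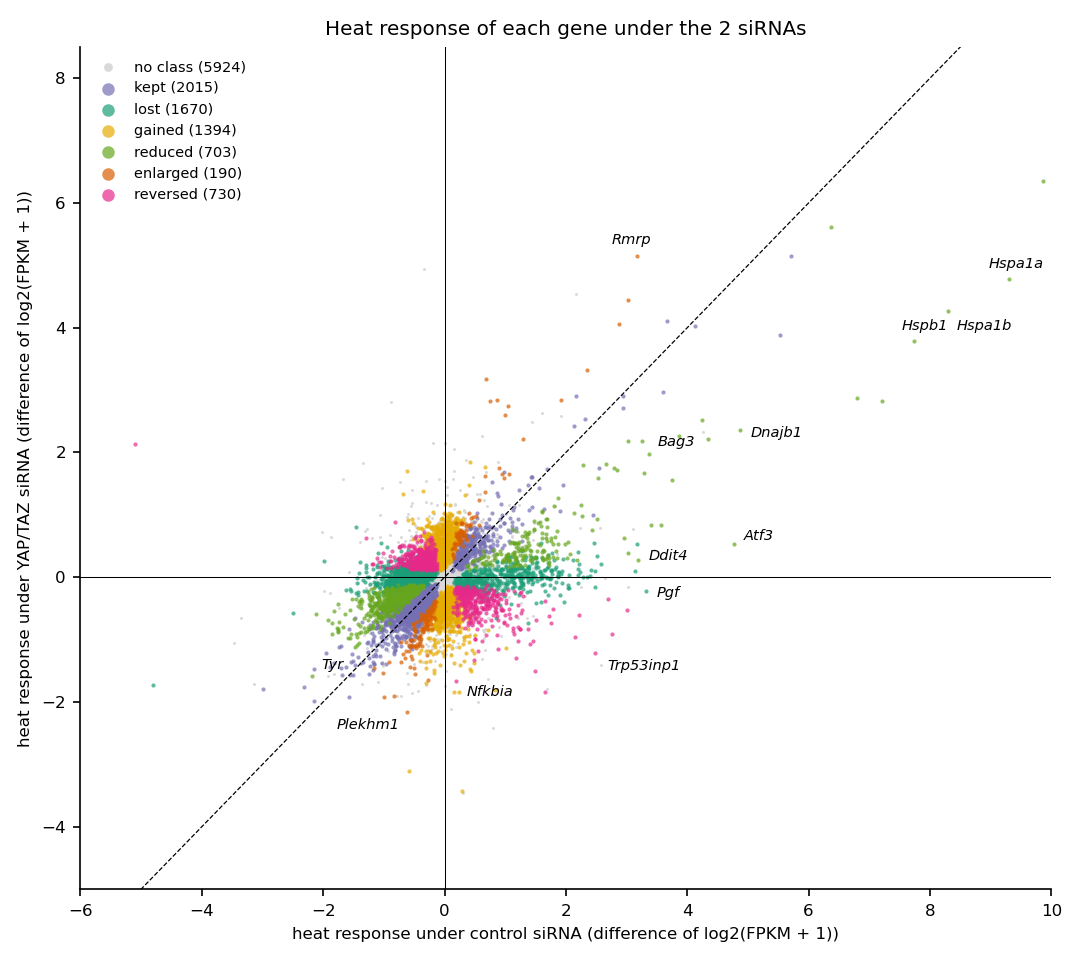
Heat response of each of the 12626 genes under control siRNA (x axis) and YAP/TAZ siRNA (y axis), both as differences of log2(FPKM + 1), coloured by class; the dashed line marks equal responses. The inducible chaperone genes and Atf3 lie at the far right below the line, and Trp53inp1 lies right of and below zero, having risen under control siRNA and fallen under YAP/TAZ siRNA.

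The inducible chaperone genes kept a rise under YAP/TAZ siRNA, but to a small part of the level they reached under control siRNA. Hspb1, a small heat shock protein gene whose product keeps unfolded proteins soluble (chr5:135887919-135889563, plus strand), stood at 11.9, 16.1 and 16.0 FPKM without heat and at 3296 and 3321 FPKM after heat in the control libraries. With YAP/TAZ siRNA the values were 10.2, 10.0 and 13.6 FPKM unheated and 182, 232 and 112 FPKM heated. Every heated YAP/TAZ siRNA library lay above all unheated libraries and far below both heated control libraries. The rise was 213-fold under control siRNA and 13.8-fold under YAP/TAZ siRNA on the FPKM + 1 scale, an interaction of -3.94 ± 0.36 (SE, adjusted p = 6.6e-05).

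The inducible Hsp70 genes Hspa1a (chr17:34969190-34972156, minus strand) and Hspa1b (chr17:34956436-34959238, minus strand) are neighbours of nearly identical sequence, so their summed level is the safer value. The sum was 5.37, 5.13 and 1.70 FPKM before and 2506 and 2416 FPKM after heat in control libraries, and 4.86, 5.73 and 4.87 FPKM and 130.0, 325 and 148 FPKM in unheated and heated YAP/TAZ siRNA libraries. The rise of the sum under YAP/TAZ siRNA was 7.97% of the rise under control siRNA in FPKM. Singly, Hspa1a had an interaction of -4.52 ± 0.96 (adjusted p = 0.0057) and Hspa1b one of -4.04 ± 0.96 (adjusted p = 0.0096). The split between both copies varied between libraries: heated YAP/TAZ siRNA replicate 3 held 14.7 FPKM of Hspa1a and 133 of Hspa1b, and replicate 1 held 96.4 and 33.6.

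Dnajb1, the Hsp40 partner of Hsp70 (chr8:83608193-83612653, plus strand), was at 25.8, 22.4 and 25.2 FPKM unheated and 770 and 713 heated under control siRNA, and at 21.4, 18.5 and 20.8 unheated and 104, 117 and 101 heated under YAP/TAZ siRNA. Its interaction was -2.51 ± 0.12 (adjusted p = 3.3e-06). Bag3, a co-chaperone that hands Hsp70 clients to autophagy, averaged 249 ± 13.7 FPKM (SD, n = 2) in heated control and 95.5 ± 10.1 (SD, n = 3) in heated YAP/TAZ siRNA libraries from 23.3 and 23.6 unheated (interaction -1.40 ± 0.11, adjusted p = 3.0e-05). The unheated groups overlapped for Hspb1 and Bag3 and lay close together for Dnajb1, and the heated groups overlapped for none of the 3.

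For another set the unheated level differed too. Hsp90aa1, the inducible cytosolic Hsp90, averaged 525 ± 17.0 FPKM (SD, n = 3) and 1603 ± 39.9 (SD, n = 2) before and after heat under control siRNA, and 250 ± 9.13 and 525 ± 21.4 (SD, n = 3 each) under YAP/TAZ siRNA. Heated YAP/TAZ siRNA cells therefore had about the Hsp90aa1 level of unheated control cells. Its interaction was -0.54 ± 0.07 (adjusted p = 0.00049), that of the Hsp110 gene Hsph1 was -0.60 ± 0.10 (adjusted p = 0.0020) and that of Cryab, a small heat shock protein, was -0.70 ± 0.10 (adjusted p = 0.00066). Chordc1, an Hsp90 co-chaperone, rose by 1.03 under control and 0.33 under YAP/TAZ siRNA. The rises of Dnajb4, an Hsp40 gene, and Zfand2a, an arsenite- and heat-induced proteasome adaptor, were lost. Zfand2a went from 5.41, 5.59 and 4.50 FPKM to 29.9 and 24.8 under control siRNA and from 6.59, 5.63 and 5.97 to 6.59, 6.85 and 6.69 under YAP/TAZ siRNA (interaction -2.07 ± 0.14, adjusted p = 1.5e-05). With quantile normalization Zfand2a counted as reduced, and Dnajb4 did so under 2 of 3 other scalings.

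**Figure D2:**
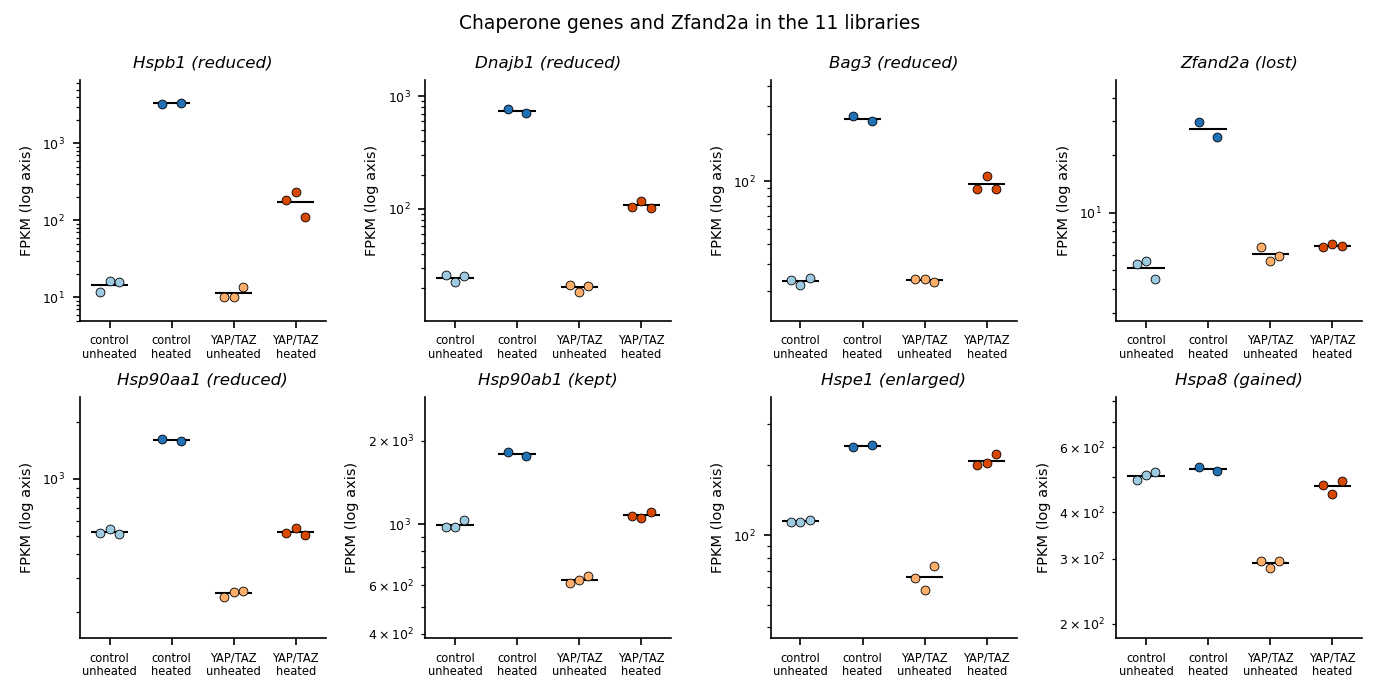
FPKM (log axis) of 7 chaperone genes and Zfand2a in each of the 11 libraries, with a bar at each group mean. Hspb1, Dnajb1 and Bag3 start from close levels and reach lower ones under YAP/TAZ siRNA, and Hsp90aa1, Hsp90ab1, Hspe1 and Hspa8 start lower under it.

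The bases before the start of Hspb1, Hspa1a, Hspa1b, Hspe1 and Dnajb1 are shown because HSF1 binds inverted GAA repeats and these genes rose under both siRNAs by very different amounts. Hspe1 is shown as a gene with a larger rise under YAP/TAZ siRNA. Each run is the 200 bases before the RefSeq gene start (GRCm38.p6), 5′ to 3′ on the gene's strand, with matches to GAANNTTC in capitals; the motif is its own reverse complement, so both strands are covered. In 5.36% of 32851 RefSeq windows of the same length the motif was present. The windows are chr5:135887719-135887918 (plus strand) for Hspb1, chr17:34972157-34972356 (minus) for Hspa1a, chr17:34959239-34959438 (minus) for Hspa1b, chr1:55087948-55088147 (plus) for Hspe1 and chr8:83607975-83608174 (plus) for Dnajb1.
Hspb1: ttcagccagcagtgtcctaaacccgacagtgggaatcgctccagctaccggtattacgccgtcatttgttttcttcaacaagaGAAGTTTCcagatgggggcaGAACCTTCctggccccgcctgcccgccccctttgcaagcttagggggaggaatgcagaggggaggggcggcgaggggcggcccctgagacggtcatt
Hspa1a: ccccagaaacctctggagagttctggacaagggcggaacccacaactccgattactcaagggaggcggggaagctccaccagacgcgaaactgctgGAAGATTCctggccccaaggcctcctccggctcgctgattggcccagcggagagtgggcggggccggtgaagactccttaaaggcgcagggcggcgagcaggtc
Hspa1b: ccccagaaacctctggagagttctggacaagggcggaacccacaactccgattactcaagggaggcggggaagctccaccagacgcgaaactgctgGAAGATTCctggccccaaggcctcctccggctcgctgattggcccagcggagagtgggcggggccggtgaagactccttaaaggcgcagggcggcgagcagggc
Hspe1: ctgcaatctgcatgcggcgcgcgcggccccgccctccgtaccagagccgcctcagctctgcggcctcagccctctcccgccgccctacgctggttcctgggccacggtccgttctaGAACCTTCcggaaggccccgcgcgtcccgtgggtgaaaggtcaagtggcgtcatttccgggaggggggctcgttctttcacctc
Dnajb1: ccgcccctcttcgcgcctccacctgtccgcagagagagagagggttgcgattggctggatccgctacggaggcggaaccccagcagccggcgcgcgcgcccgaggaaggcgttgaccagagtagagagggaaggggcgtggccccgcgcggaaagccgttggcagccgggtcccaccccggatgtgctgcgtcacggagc

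The first letter of the match stood 117 and 97 bases before the start in Hspb1, 104 in both Hsp70 genes and 84 in Hspe1, and these letters were not in the Dnajb1 window. The Hspa1a and Hspa1b windows were identical at 199 of 200 bases. Over the full RefSeq windows of 300 bases (250 before to 50 after the start), 7.86% held the motif. A window was matched for 8451 of the 12626 genes tested, and 6.59% of those genes had a match in at least 1 window. Matches were found for 9 of 84 genes with a reduced rise (10.7%), 25 of 284 with a lost rise (8.80%), 9 of 146 with a kept rise (6.16%), 38 of 535 with a gained rise (7.10%) and 6 of 23 with an enlarged rise (26.1%). The TEAD letters GGAATG, searched on both strands, were in 14.7% of the 300-base windows, in 13.8% of the genes tested, in 14.4% of those with a lost rise and in 13.1% of those with a reduced rise. A match is a description of letters and not a binding site.

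Other chaperone and ubiquitin genes kept their rise or had a larger one. Ubb, a polyubiquitin gene, was at 2.50, 2.43 and 0.525 FPKM unheated and 13.999 and 14.8 heated under control siRNA, and at 2.76, 2.71 and 2.67 unheated and 11.7, 11.9 and 10.9 heated with YAP/TAZ siRNA. Its heated groups did not overlap, but 1 unheated control library stood apart, and the interaction was -0.79 with a 95% interval of -1.69 to 0.10. Without that library it was -0.40 (adjusted p = 0.0079, limma). Hsp90ab1, the constitutive cytosolic Hsp90, rose by 0.85 and 0.77 and had an interaction of -0.08 (interval -0.23 to 0.07), but counted as reduced with a common total, with quantile normalization and with the length trend removed. Coq10b, a coenzyme Q chaperone gene that lies over another transcript with a large heat rise, rose by 1.39 and 1.08 and was also kept.

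The chaperonin and prefoldin subunits, which fold actin and tubulin, gained a rise in 9 of 14 cases, against 6.74% of all genes. Of the 14 genes tested, 4 rose and 1 fell under control siRNA and 14 rose under YAP/TAZ siRNA. Over all genes 12.4% rose and 36.9% fell under control siRNA, and 18.6% rose under YAP/TAZ siRNA. The interaction was higher at 13 and lower at 0, against 24.6% and 13.4% of all genes. With a common total, the median of ratios and quantile normalization, 11, 8 and 6 were higher and 0 lower. The gained count was 10, 5 and 5 in the same order, and 4 with the length trend removed. The median interaction of the list was 0.45, against 0.11 over all genes. Cct5, a subunit of the ring, was at 156, 146 and 160 FPKM unheated and 159 and 166 heated under control siRNA, and at 97.6, 98.5 and 103 unheated and 148, 146 and 153 heated under YAP/TAZ siRNA. After heat Cct5 under YAP/TAZ siRNA was thus close to the level of unheated control cells. Pfdn6, a prefoldin subunit, had an interaction of 0.90 ± 0.13 (adjusted p = 0.00087) and Cct7 one of 0.32 ± 0.05 (adjusted p = 0.00089), which was not called with quantile normalization.

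The constitutive Hsp70 gene Hspa8 had the same shape. It was at 489, 505 and 516 FPKM unheated and 529 and 516 heated under control siRNA, and at 296, 284 and 297 unheated and 474, 449 and 488 heated under YAP/TAZ siRNA (interaction 0.63 ± 0.07, adjusted p = 0.00014). Hspe1, the mitochondrial Hsp10 gene that overlaps Hspd1, rose from 114 to 241 FPKM under control siRNA and from 65.8 to 209 under YAP/TAZ siRNA (interaction 0.59 ± 0.12, adjusted p = 0.0040). Over the Hsp70 and Hsp110 list 2 of 10 genes had a higher and 5 a lower interaction, over the small heat shock protein and BAG list 1 and 4 of 11, over the Hsp40 list 4 and 2 of 15, and over the Hsp90 list 6 and 3 of 17, against 24.6% and 13.4% of all genes, so the Hsp40 list lay near the share of all genes. The direction of the Hsp40 counts turned to 0 higher and 4 lower with a common total and with the median of ratios, and to 1 and 4 with quantile normalization. Hsf1, the master regulator of the response, fell by 0.17 under control siRNA and rose by 0.24 under YAP/TAZ siRNA (interaction 0.41 ± 0.08, adjusted p = 0.0039), and the fall was not called with the median of ratios, quantile normalization or the length trend removed, nor the rise with a common total. Hsf2 had a rise of 0.21 under control siRNA that was lost (interaction -0.34 ± 0.08, adjusted p = 0.0084). With a common total that rise was not called and a fall under YAP/TAZ siRNA was.

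Genes of the AP-1 family lost most of their heat rise under YAP/TAZ siRNA. Of 11 AP-1 genes tested, counting Atf3, 9 rose with control siRNA but 4 with YAP/TAZ siRNA, against 12.4% and 18.6% of all genes. The interaction was lower at 9 and higher at 1, against 13.4% and 24.6% of all genes. Under each of the 3 other scalings it was lower at 9 of 11 as well. The median heat response of the list was 1.24 under control and 0.15 under YAP/TAZ siRNA. Atf3, a stress-induced transcription factor (chr1:191170296-191218039, minus strand), was at 1.34, 1.72 and 1.201 FPKM unheated and 74.0 and 56.2 heated under control siRNA. With YAP/TAZ siRNA it stood at 3.88, 3.998 and 4.04 unheated and 6.26, 6.20 and 6.07 heated. Its unheated level was thus higher and its heated level a small part of that in control cells, an interaction of -4.24 ± 0.15 (adjusted p = 8.2e-07). Jun, the central AP-1 subunit, rose to 251 and 243 FPKM under control siRNA and to 129, 152 and 123.2 under YAP/TAZ siRNA (interaction -1.61 ± 0.11, adjusted p = 1.6e-05). The rise of Fos was reduced (interaction -1.13 ± 0.13, adjusted p = 0.00025), and that of Junb was lost (-2.21 ± 0.14, adjusted p = 1.4e-05).

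Among early response genes, which growth factors and stress induce within minutes, 14 of 24 rose with control siRNA but 4 with YAP/TAZ siRNA. Over all genes 12.4% and 18.6% rose, so the second count lay near that share. The interaction was lower at 16 and higher at 1, against 13.4% and 24.6% of all genes. Ddit4, an mTORC1 inhibitor, was at 8.73, 9.45 and 9.59 FPKM unheated and 96.2 and 89.0 heated under control siRNA, and at 22.6, 27.4 and 30.1 unheated and 33.0, 33.9 and 30.6 heated under YAP/TAZ siRNA (interaction -2.91 ± 0.14, adjusted p = 3.3e-06). Dusp1, a phosphatase that switches off MAP kinases, lost its rise (-2.17 ± 0.15, adjusted p = 1.9e-05), and that of Dusp8 was reduced (-2.58 ± 0.18, adjusted p = 1.7e-05). Both are in a list of MAP kinase phosphatases and ERK feedback genes that was mixed. Of its 17 genes tested, 6 rose and 5 fell under control siRNA, and 2 rose and 9 fell under YAP/TAZ siRNA. Over all genes 12.4% rose and 36.9% fell, and 18.6% rose and 31.7% fell. The interaction of that list was higher at 3 and lower at 8, against 24.6% and 13.4% of all genes. Among the early response genes Egr1 was an exception: it rose by 1.95 and 1.47, and its interaction was -0.48 (interval -1.03 to 0.07). Egr1 was at 4.09 and 7.499 FPKM in the heated control libraries, and without the first of these its interaction was -0.85 (adjusted p = 0.0047, limma), a fit in which the remaining library is assumed to vary like the other groups.

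Many p53 targets rose under control siRNA and fell under YAP/TAZ siRNA. Of 22 tested, 13 rose and 3 fell under control siRNA, while 2 rose and 13 fell under YAP/TAZ siRNA. Over all genes 12.4% rose and 36.9% fell under control siRNA, and 18.6% rose and 31.7% fell under YAP/TAZ siRNA. The interaction of the list was lower at 16 and higher at 1, against 13.4% and 24.6% of all genes. Of the 22, 8 were reversed from a rise to a fall, against 2.57% of all genes. The lower count was 16, 16 and 17 with a common total, the median of ratios and quantile normalization. Trp53inp1, which promotes p53-dependent death and autophagy (chr4:11156431-11174379, plus strand), was at 8.003, 8.14 and 7.22 FPKM unheated and 52.8 and 43.6 heated under control siRNA. With YAP/TAZ siRNA it stood at 18.4, 19.2 and 18.5 unheated and 7.45, 8.22 and 6.78 heated, so it started higher and fell to the level of unheated control cells (interaction -3.70 ± 0.13, adjusted p = 8.2e-07). Bbc3, which encodes the death factor PUMA, rose to 21.9 and 19.2 FPKM under control siRNA and fell from 7.01, 7.05 and 7.74 to 3.34, 3.11 and 3.72 under YAP/TAZ siRNA (interaction -3.67 ± 0.14, adjusted p = 1.0e-06).

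Sesn2, a stress-induced mTORC1 inhibitor, and Btg2, an antiproliferative p53 target, were reversed likewise, with interactions of -3.11 ± 0.11 and -3.54 ± 0.12 (adjusted p = 8.2e-07 each). Cdkn1a, the cell cycle inhibitor p21, rose from 132, 135 and 132 FPKM to 341 and 282 under control siRNA and fell from 117, 117 and 117 to 84.5, 82.8 and 89.4 under YAP/TAZ siRNA (interaction -1.66 ± 0.10, adjusted p = 8.8e-06). Mdm2, which degrades p53, lost its rise: it reached 89.5 and 79.3 FPKM in heated control cells and was at 15.6, 16.1 and 16.6 before and 15.2, 15.4 and 15.1 after heat under YAP/TAZ siRNA (interaction -1.92 ± 0.07, adjusted p = 1.0e-06). P2rx7, an ATP-gated channel, completed the 5 ranked rises that reversed with the largest differences (-3.05 ± 0.16, adjusted p = 5.7e-06), and its fall under YAP/TAZ siRNA was not called under 2 of 3 other scalings.

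In the integrated stress response, through which phosphorylated eIF2 slows translation, 12 of 22 genes rose with control siRNA but 4 with YAP/TAZ siRNA. Over all genes 12.4% and 18.6% rose, so the count under YAP/TAZ siRNA lay near that share. The interaction was lower at 10 and higher at 3, against 13.4% and 24.6% of all genes. Chac1, which degrades glutathione, was at 2.49, 2.87 and 2.69 FPKM unheated and 9.10 and 9.59 heated under control siRNA. Under YAP/TAZ siRNA it fell from 10.97, 10.7 and 12.7 to 3.08, 3.42 and 3.62 (interaction -3.001 ± 0.11, adjusted p = 1.0e-06). Ddit3, which encodes CHOP, was reversed with an interaction of -1.37 ± 0.17 (adjusted p = 0.00034), and Hmox1, the heme oxygenase of the oxidative stress response, with one of -1.81 ± 0.09 (adjusted p = 3.3e-06). Trp53inp1, Bbc3, Sesn2, Btg2, Cdkn1a, Chac1, Ddit3 and Hmox1 were reversed under all 3 other scalings too. In Chac1, Ddit3 and Hmox1 the unheated level was higher under YAP/TAZ siRNA than under control siRNA.

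**Figure D3:**
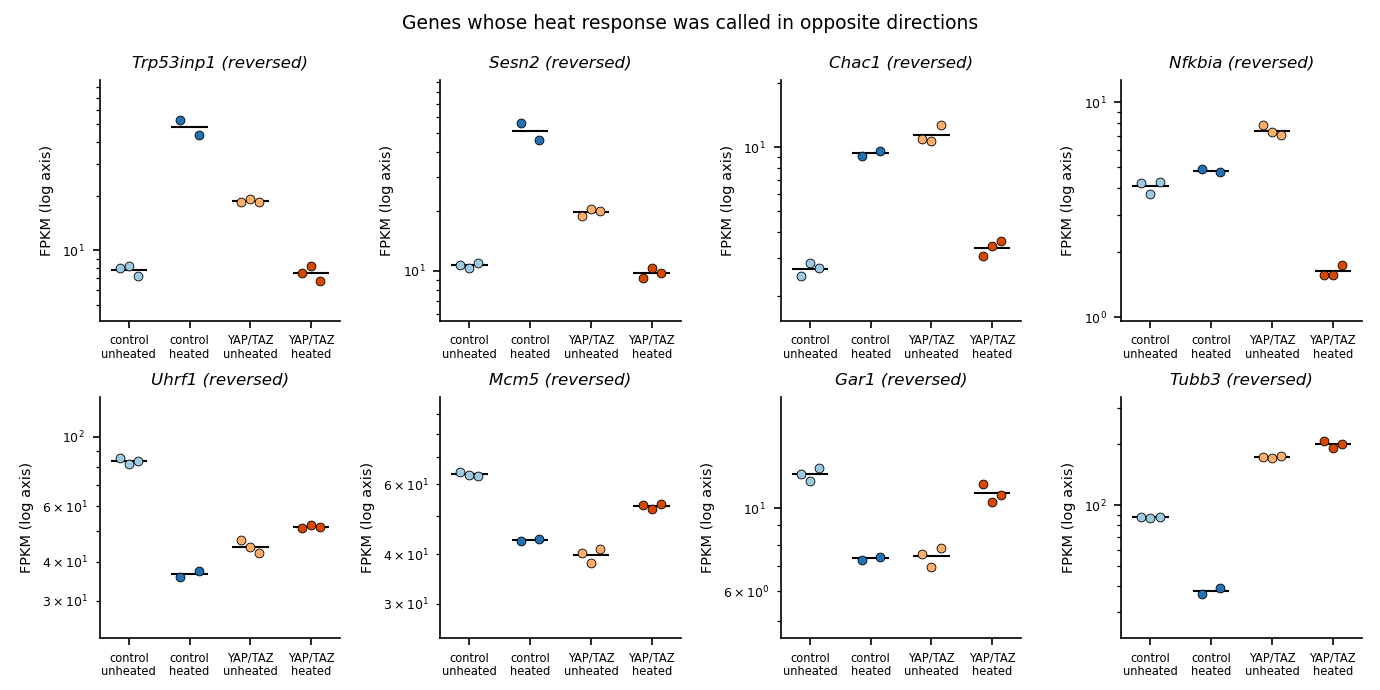
FPKM (log axis) of 8 genes with heat responses called in opposite directions, in each of the 11 libraries, with a bar at each group mean. Trp53inp1, Sesn2, Chac1 and Nfkbia start higher under YAP/TAZ siRNA and end lower after heat, while Uhrf1, Mcm5 and Gar1 start lower and end higher than in heated control cells; Tubb3 is higher under YAP/TAZ siRNA in both states.

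The 5 ranked rises that were lost with the largest differences were of genes that are low in unheated cells. Pgf, a growth factor of the VEGF family, was at 0.382, 0.248 and 0.585 FPKM unheated and 15.3 and 10.9 heated under control siRNA, and stayed between 0.216 and 0.546 FPKM in the 6 YAP/TAZ siRNA libraries (a difference of -3.54). Ccdc81, a coiled-coil gene, was listed at 0 in the 3 unheated control libraries, at 8.42 and 7.24 FPKM in the heated ones and at no more than 0.0856 FPKM under YAP/TAZ siRNA. Isg20, an exonuclease gene, Dedd2, a death effector domain gene, and Plcxd2, a phospholipase-like gene, had interactions of -2.39, -2.38 and -2.30. Pgf, Ccdc81 and Isg20 passed the level filter only through the heated control libraries, so their differences are descriptions.

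As a group, 21 targets of YAP/TAZ and TEAD showed no single fate. The interaction was higher at 3 and lower at 7, against 24.6% and 13.4% of all genes, and the median was -0.11. Ccn1, a matricellular protein gene used as a YAP/TAZ readout (chr3:145646976-145649981, minus strand), was at 13.6, 14.4 and 13.3 FPKM unheated and 106 and 104 heated under control siRNA, and at 1.54, 1.70 and 1.31 unheated and 6.28, 8.56 and 7.07 heated under YAP/TAZ siRNA. Heated YAP/TAZ siRNA cells thus stayed below unheated control cells, although Ccn1 still rose by 1.72, against 2.85 under control siRNA (interaction -1.13 ± 0.14, adjusted p = 0.00040). Its unheated level under YAP/TAZ siRNA is close to the 1 added before the log. That shrinks the rise there more than the rise under control siRNA, so part of this difference comes from the scale. Ccn2, the related readout gene, rose from 4.11, 3.72 and 3.80 to 11.2 and 10.3 FPKM under control siRNA and was at 0.409, 0.268 and 0.376 unheated and 0.257, 0.114 and 0.0865 heated under YAP/TAZ siRNA (interaction -1.50 ± 0.11, adjusted p = 2.7e-05). Its fall under YAP/TAZ siRNA was not called with the median of ratios or the length trend removed. Ccn2 lay under 1 FPKM in all 6 YAP/TAZ siRNA libraries, so the size of that fall depends on the 1 added before the log. Among 28 Hippo pathway components, 17 fell with heat under YAP/TAZ siRNA and 9 under control siRNA, against 31.7% and 36.9% of all genes, and the interaction was higher at 2 and lower at 7. Falls under YAP/TAZ siRNA numbered 11 with the median of ratios, 10 with quantile normalization and 8 with the length trend removed. Wwc1, which encodes the upstream Hippo activator KIBRA, lost a fall of 0.94: it went from 13.6, 13.0 and 13.3 to 6.43 and 6.44 FPKM under control siRNA and was between 3.75 and 4.21 in the 6 YAP/TAZ siRNA libraries. Vgll4, a TEAD cofactor that opposes YAP, was reversed from a rise of 0.87 to a fall of 0.43.

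Genes of DNA replication fell with heat under control siRNA and mostly did not under YAP/TAZ siRNA. Of 33 tested, 27 fell and 0 rose under control siRNA, while 24 rose and 1 fell under YAP/TAZ siRNA. Over all genes 36.9% fell and 12.4% rose under control siRNA, and 18.6% rose and 31.7% fell under YAP/TAZ siRNA. The interaction of the list was higher at 30 and lower at 0, against 24.6% and 13.4% of all genes. Under the 3 other scalings it was higher at 27, 27 and 28. The median response was -0.50 under control and 0.22 under YAP/TAZ siRNA. How many of these genes rose under YAP/TAZ siRNA depended on the scaling, with 10, 26 and 20 called for a common total, the median of ratios and quantile normalization. Reversed replication genes numbered 20 in the deposited scale, where 3.22% of all genes reversed from a fall to a rise. They numbered 8, 17 and 11 in the same order of scalings. Uhrf1, which keeps DNA methylation through replication (chr17:56303321-56323486, plus strand), was at 85.3, 81.9 and 84.0 FPKM unheated and 35.8 and 37.3 heated under control siRNA. With YAP/TAZ siRNA it stood at 46.7, 44.5 and 42.7 unheated and 51.0, 52.3 and 51.6 heated (interaction 1.38 ± 0.06, adjusted p = 2.9e-06). Heated YAP/TAZ siRNA cells thus had more of this RNA than heated control cells, from a lower start. With a common total the rises of Uhrf1, Gmnn, Snrpd1 and Tubb3 under YAP/TAZ siRNA were not called, and those of Uhrf1, Snrpd1 and Tubb3 were not called with quantile normalization either, while Mcm5 and Gins1 were reversed under all 3 scalings.

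Mcm5, a subunit of the replicative helicase, had the same order of levels: 63.5 ± 0.755 FPKM (SD, n = 3) and 43.4 ± 0.488 (SD, n = 2) under control siRNA, and 39.8 ± 1.71 and 52.8 ± 0.750 (SD, n = 3 each) under YAP/TAZ siRNA (interaction 0.94 ± 0.06, adjusted p = 1.3e-05). Gmnn, the licensing inhibitor geminin, and Gins1, another helicase part, had interactions of 1.42 ± 0.15 and 1.39 ± 0.09 (adjusted p = 0.00014 and 1.6e-05). Rrm2, a subunit of the enzyme that makes deoxynucleotides, fell under both siRNAs, by 1.47 and 0.34 (interaction 1.12 ± 0.08, adjusted p = 1.8e-05). Mitotic genes moved alike. Of 31, 21 fell with heat in control cells and 3 in YAP/TAZ siRNA cells, against 36.9% and 31.7% of all genes. Their interaction was higher at 25 and lower at 0, against 24.6% and 13.4% of all genes. Under YAP/TAZ siRNA 13 of the mitotic genes rose, but 4 rose and 8 fell with a common total. Plk1, a mitotic kinase, lost a fall from 87.2, 84.6 and 89.6 to 42.2 and 43.7 FPKM, being at 54.0, 51.1 and 52.3 before and 54.6, 49.4 and 56.0 after heat under YAP/TAZ siRNA. Ccnb1, the mitotic cyclin B1, fell by 1.14 and 0.25.

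Ribosome biogenesis genes had the same pattern. Of 37 tested, 29 fell and 0 rose under control siRNA, and 1 fell and 23 rose under YAP/TAZ siRNA. Over all genes 36.9% fell and 12.4% rose under control siRNA, and 31.7% fell and 18.6% rose under YAP/TAZ siRNA. The interaction of the list was higher at 34 and lower at 0, against 24.6% and 13.4% of all genes. Under the 3 other scalings it was higher at 32, 33 and 33, while rises under YAP/TAZ siRNA numbered 15, 29 and 23. The median interaction was 0.68. Nop2, a nucleolar methyltransferase gene, was at 108, 109 and 115 FPKM unheated and 67.7 and 68.5 heated under control siRNA, and at 51.0, 52.0 and 52.8 unheated and 62.5, 62.9 and 64.8 heated under YAP/TAZ siRNA (interaction 0.98 ± 0.06, adjusted p = 8.4e-06). Gar1, which guides pseudouridine into ribosomal RNA, had an interaction of 1.18 ± 0.09 (adjusted p = 2.3e-05). Polr1b, a subunit of RNA polymerase I, lost a fall of 1.16 (interaction 1.09 ± 0.07, adjusted p = 1.4e-05). Of the 5 falls that reversed with the largest differences in the ranking above 5 FPKM, Gmnn, Gins1 and Uhrf1 are named above. The other two were Tubb3, a neuronal beta-tubulin at 172, 171 and 174 FPKM unheated under YAP/TAZ siRNA and 87.9, 86.8 and 87.7 under control siRNA (1.40 ± 0.06, adjusted p = 2.8e-06), and the spliceosome core gene Snrpd1 (1.32 ± 0.12, adjusted p = 5.4e-05).

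**Figure D4:**
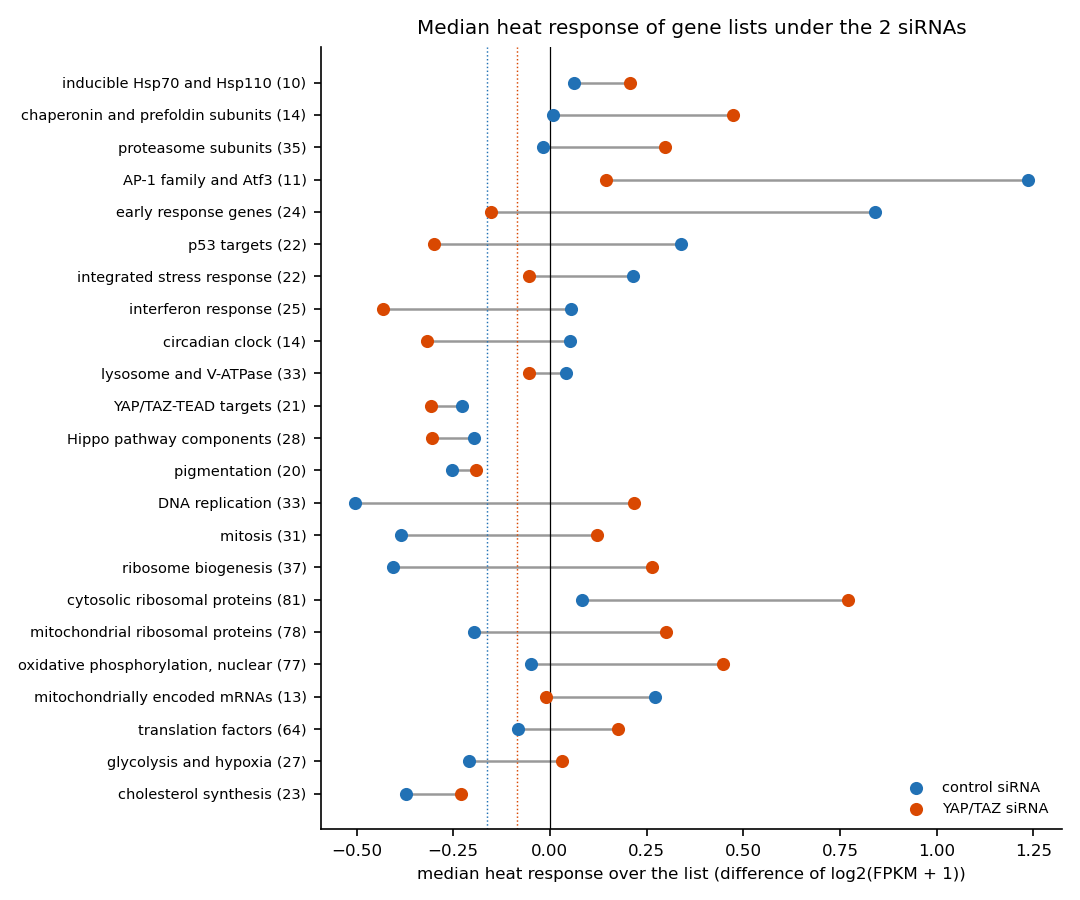
Median heat response of 23 gene lists under control siRNA (blue) and YAP/TAZ siRNA (orange), with the number of genes tested in brackets; dotted lines mark the medians over all 12626 genes, -0.16 and -0.09. AP-1, early response and p53 lists lie higher under control siRNA, and replication, mitosis and ribosome lists lie higher under YAP/TAZ siRNA.

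Ribosomal protein genes mostly gained a rise. Of 81 cytosolic ribosomal protein genes tested, 12 rose with control siRNA and 76 with YAP/TAZ siRNA, against 12.4% and 18.6% of all genes. The interaction was higher at 62 and lower at 0, against 24.6% and 13.4%, and 53 gained a rise, against 6.74%. Higher interactions numbered 61, 54 and 44 under the 3 other scalings and 50 with the length trend removed. The median response was 0.08 under control and 0.77 under YAP/TAZ siRNA. Rps4x was at 350, 340 and 373 FPKM unheated and 350 and 363 heated under control siRNA, and at 340, 339 and 382 unheated and 580, 532 and 601 heated under YAP/TAZ siRNA (interaction 0.68 ± 0.10, adjusted p = 0.00081). Rpl35a rose from 31.8, 26.0 and 34.5 to 55.6, 48.6 and 59.4 FPKM under YAP/TAZ siRNA and had a response of -0.21 under control siRNA (interaction 1.02 ± 0.17, adjusted p = 0.0018). Ribosomal protein genes have many near-identical pseudogene copies, so single values are uncertain.

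Other housekeeping groups behaved alike. Over all genes 24.6% of interactions were higher and 13.4% lower, and 6.74% of genes gained a rise. The interaction was higher at 53 and lower at 0 of 78 mitochondrial ribosomal protein genes, and 49 and 0 of 77 nuclear genes of oxidative phosphorylation, 42 of which were gained. The higher count of the oxidative phosphorylation list was 32 with the median of ratios and 20 with quantile normalization, and its gained count was 27 and 12. It was higher at 22 and lower at 0 of 35 proteasome subunits, but at 10, 7 and 6 with the median of ratios, quantile normalization and the length trend removed, each with 1 lower. Of 64 genes named Eif or Eef, which cover translation factors and the eIF2 kinases, 34 were higher and 2 lower, or 19 and 4 with quantile normalization. Uqcrh, a complex III subunit, lost a fall of 1.12 (interaction 1.28 ± 0.19, adjusted p = 0.00089), and Cox7b, a complex IV subunit, was reversed (0.96 ± 0.15, adjusted p = 0.0013). Mitochondrially encoded messenger RNAs went the other way: 11 of 13 rose under control and 1 under YAP/TAZ siRNA, against 12.4% and 18.6% of all genes. Their interaction was lower at 7 and higher at 0, or 3 and 1 with quantile normalization. The rises under control siRNA numbered 6 with a common total and 1 with quantile normalization. mt-Nd1, a complex I subunit, was at 4563 and 4508 FPKM in heated control and 2847, 3011 and 3005 in heated YAP/TAZ siRNA libraries (interaction -0.57 ± 0.08, adjusted p = 0.00090).

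Among genes that met the ranking limits, the 5 gained rises with the largest differences were those of mt-Rnr1, Polr1d, Rpl22l1, Ccdc22 and Rpl35a. mt-Rnr1, the small mitochondrial ribosomal RNA, was at 163, 178 and 159 FPKM unheated and 95.9 and 111 heated under control siRNA, and at 130, 136 and 214 unheated and 579, 329 and 321 heated under YAP/TAZ siRNA (interaction 2.02 ± 0.37, adjusted p = 0.0027). Polr1d, a subunit of RNA polymerases I and III, had a difference of 1.17 ± 0.28 (adjusted p = 0.010), Rpl22l1, a ribosomal protein paralogue, one of 1.14 ± 0.19 (adjusted p = 0.0019) and Ccdc22, an endosomal trafficking gene, one of 1.12 ± 0.27 (adjusted p = 0.011). Within the same limits, enlarged rises were led by 2 small noncoding RNAs, Rmrp and Rpph1, the RNA parts of the RNases MRP and P. Rmrp was at 0.168, 0.186 and 0.162 FPKM unheated and 8.48 and 10.7 heated under control siRNA, and at 0.785, 0.614 and 0.363 unheated and 71.3, 46.2 and 49.8 heated under YAP/TAZ siRNA (interaction 1.98 ± 0.24, adjusted p = 0.00033). Both overlap a protein gene in the annotation and are short, and the Rpph1 difference of 1.19 ± 0.27 (adjusted p = 0.0082) was 0.53 and not called with a pseudocount of 0.1. Rmrp lay under 1 FPKM in every unheated library, so the size of its difference depends on the 1 that is added before the log.

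Heat lowered a set of signalling and interferon genes only, or more, under YAP/TAZ siRNA. Ier3, an immediate early survival gene, was at 10.1, 11.9 and 10.95 FPKM unheated and 15.1 and 11.4 heated under control siRNA, and fell from 11.5, 12.3 and 13.5 to 2.44, 2.36 and 3.55 under YAP/TAZ siRNA (interaction -2.08 ± 0.20, adjusted p = 9.6e-05). Rbsn, an endosome fusion gene, fell from 6.84, 6.77 and 6.53 to 1.80, 2.37 and 1.58 FPKM under YAP/TAZ siRNA, and was at 8.42 and 8.07 in heated control cells (-1.67 ± 0.14, adjusted p = 3.6e-05). Nfat5, an osmotic stress factor, and Gsk3b, a kinase of Wnt and insulin signalling, had gained falls with differences of -1.70 ± 0.32 and -1.61 ± 0.39 (adjusted p = 0.0030 and 0.011). Gsk3b was uneven, at 2.89, 7.07 and 2.44 FPKM in the heated YAP/TAZ siRNA libraries. Kctd12 was at 7.55, 8.07 and 7.34 FPKM in unheated YAP/TAZ siRNA libraries and listed at 0 in all heated libraries and in 2 of 3 unheated control libraries, so its difference is uncertain.

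Nfkbia, the inhibitor of NF-kB, rose by 0.20 under control siRNA and fell from 7.82, 7.26 and 7.08 to 1.58, 1.56 and 1.75 FPKM under YAP/TAZ siRNA (interaction -1.87 ± 0.09, adjusted p = 3.7e-06); the rise was not called with a common total. Cxcl10, an interferon-induced chemokine, rose from 42.3, 42.9 and 37.0 to 138 and 93.1 FPKM under control siRNA and fell from 10.0, 8.02 and 10.9 to 3.48, 4.66 and 4.53 under YAP/TAZ siRNA (interaction -2.48 ± 0.24, adjusted p = 9.0e-05). Of 25 interferon response genes tested, 8 fell under control and 17 under YAP/TAZ siRNA, against 36.9% and 31.7% of all genes. The interaction was lower at 13 and higher at 0, against 13.4% and 24.6%, and lower at 14, 13 and 10 under the 3 other scalings. The summed level of the list was 125, 126 and 136 FPKM unheated and 126 and 144 heated under control siRNA. Under YAP/TAZ siRNA it was 227, 205 and 256 unheated and 179, 204 and 178 heated, so the sum stayed above control cells after heat. Ranked falls that became larger were led by Plekhm1, an autophagosome adaptor gene, from 41.8, 41.8 and 36.1 to 7.93, 8.38 and 8.11 FPKM under YAP/TAZ siRNA and from 25.4, 24.1 and 24.9 to 18.6 and 13.5 under control siRNA (-1.54 ± 0.15, adjusted p = 0.00010). Adamts1, a matrix protease gene, Lcmt2, a tRNA modification gene, Vps18, a lysosome tethering gene, and Ifit1, an interferon-induced RNA sensor, followed with differences of -1.37, -1.07, -0.96 and -0.94.

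The lost and reduced falls described here are single genes and no tested group. Tob2, an antiproliferative adaptor of the deadenylase, fell from 7.53, 7.37 and 7.60 to 2.36 and 2.05 FPKM under control siRNA and was at 12.6, 12.3 and 11.95 before and 11.9, 14.5 and 12.4 after heat under YAP/TAZ siRNA (interaction 1.47 ± 0.11, adjusted p = 2.4e-05). Aunip, a DNA repair gene, had a lost fall with a difference of 1.49 ± 0.12 (adjusted p = 3.0e-05). Nkiras2, Leng1 and Clic1 were also among the 5 ranked lost falls with the largest differences, at 2.27, 2.25 and 1.92, but libraries of 1 group disagreed widely. Leng1 was at 0.115 and 3.99 FPKM in the heated control libraries, and Nkiras2 at 5.55, 4.64 and 14.3 in unheated YAP/TAZ siRNA libraries, and both overlap other genes. H2afx, the histone variant marking DNA breaks, fell from 47.4, 44.6 and 47.4 to 12.6 and 11.8 FPKM under control siRNA and from 27.04, 24.7 and 28.6 to 16.2, 15.3 and 15.5 under YAP/TAZ siRNA (interaction 1.11 ± 0.09, adjusted p = 3.1e-05). S100a11, a calcium-binding protein, Gemin4, a part of the complex that loads spliceosome cores, and Haspin, a mitotic histone kinase, had reduced falls with differences of 1.33, 1.25 and 1.17.

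Of 20 pigmentation genes tested, 3 kept a fall, a share near the 13.5% of all genes. Tyr, the tyrosinase that makes melanin, fell from 55.4, 58.2 and 56.8 to 19.0 and 20.6 FPKM under control siRNA and from 100.3, 111 and 111 to 41.4, 41.2 and 37.2 under YAP/TAZ siRNA. The falls of 1.48 and 1.40 differed by 0.07 with an interval of -0.13 to 0.27, while the level under YAP/TAZ siRNA was higher in both states. Mc1r, the melanocortin receptor, had a reduced fall (interaction 0.66 ± 0.06, adjusted p = 9.8e-05) and Dct, another melanin enzyme, an enlarged one (-0.54 ± 0.06, adjusted p = 0.00016). Over the pigmentation list the interaction was higher at 6 and lower at 1, but 3 and 6 with quantile normalization, so no direction holds for the group. The 5 largest kept falls in the ranking were those of Lpar5, a lysophosphatidic acid receptor, Lrrc4b, a synaptic adhesion gene, Lgals3bp, a secreted glycoprotein, Hk2, the hexokinase of glycolysis, and Golph3l, a Golgi gene. Lgals3bp fell by 2.16 and 1.46, and its interval of 0.09 to 1.30 with an adjusted p of 0.068 from limma shows that a kept label does not mean equal responses. Lpar5 spread from 5.24 to 20.2 FPKM between unheated YAP/TAZ siRNA libraries, and its interval ran from -0.47 to 2.88.

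Levels without heat differed by class, which the 4 group medians show. These medians use the libraries that placed the genes in classes and are descriptions. In unheated YAP/TAZ siRNA cells the median log2 difference from unheated control cells was 0.05 for lost rises and -0.03 for reduced rises, with members on both sides of 0 (294 of the lost rises higher and 184 lower). It was -0.43 for falls that reversed, where 370 of 406 genes were lower, and 0.34 for rises that reversed, where 267 of 324 were higher. For gained rises it was -0.23 (701 of 851 lower) and for gained falls 0.37 (458 of 543 higher). Of those 543 genes, 42 passed the level filter only through the unheated YAP/TAZ siRNA libraries. After heat the YAP/TAZ siRNA medians relative to unheated control cells were -0.16 for reversed falls, -0.08 for reversed rises, 0.24 for gained rises and -0.11 for gained falls. Reversed genes thus ended nearer to the unheated control level than they began, while lost and reduced rises ended 0.79 and 0.98 below heated control cells.

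**Figure D5:**
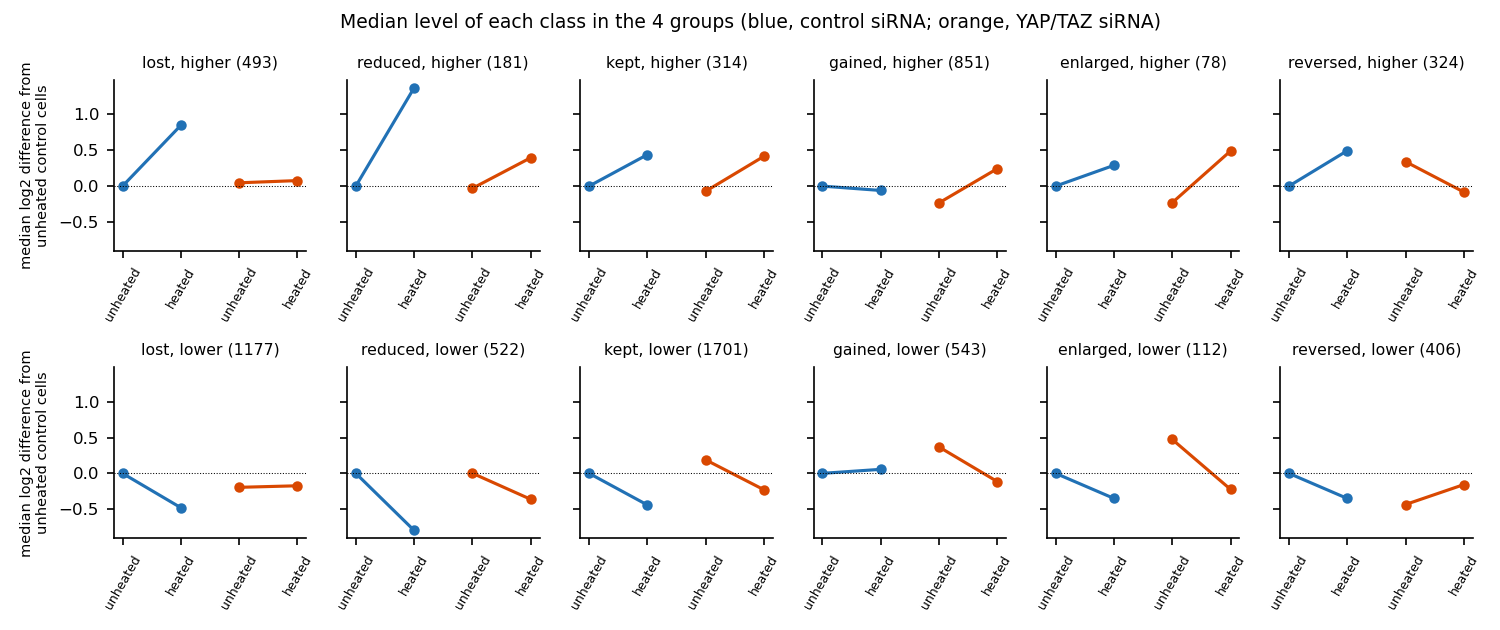
Median log2(FPKM + 1) difference from unheated control siRNA cells in each of the 4 groups, for the 12 classes (number of genes in brackets); blue points are control siRNA and orange points YAP/TAZ siRNA. Lost and reduced rises start near 0 under both siRNAs, and gained and reversed classes start on the side opposite to the heat response they then show.

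Gene length moved with these classes. The median summed exon length was 2076 bases for gained rises, 1219.5 for enlarged rises, 5614.5 for gained falls and 5427 for kept falls, against 3925 over all genes tested. Genes with a length were split into 10 bins of equal number. In the bin with the shortest exons (median 428 bases) the median heat response was 0.05 under control and 0.23 under YAP/TAZ siRNA, and in the bin with the longest (median 11846 bases) it was -0.21 and -0.26. The median interaction ran from 0.25 in the second bin to -0.05 in the last. With the length trend taken off each library, 2107 interactions were higher and 2197 lower over 12259 genes with a length, and 76.6% of the 4672 called differences among them were called again in the same direction. The part of length in the single results was not tested beyond that alternative. With it, DNA replication had 26 higher and 0 lower interactions of 33 genes, ribosome biogenesis 33 and 0 of 37, and the AP-1 list 0 and 9 of 11.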

How the data were processed

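The values were FPKM, which the authors deposited in 1 gene table with 11 library columns. Per the submitters' processing notes, Trimmomatic 0.36, HISAT2, SAMtools, StringTie and DESeq2 and the genome build GRCm38 were used, with no role or order given. Trizol RNA and a NEBNext Ultra RNA library kit were used, per the labels' protocols. How strands were treated, and the annotation release, is not given in the sources used here. Overlapping and antisense genes, and near-identical copies, are therefore uncertain. Since 0% of non-zero values were whole (tolerance 1e-06), no count model was used, and depth was read from the FPKM of single fragments on genes of known exon length. Intervals cover the spread between libraries only.

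All 11 libraries entered 1 fit of log2(FPKM + 1) with limma 3.58.1 in R 4.3.3 (4 group means, no covariate, empirical Bayes with a trend, 7 residual degrees of freedom). On this scale the fold of a low gene is too small. Where the unheated levels of the siRNAs differ and are low, the difference between the 2 responses can be too small or too large. Benjamini-Hochberg adjustment ran over the 12626 genes of each of 3 comparisons. The fit was also run on simulated data with independent noise for each value. Those data had no shift of scaling or length between libraries, so that run does not test such effects. Positions and exon lengths came from GENCODE M21 (GRCm38), promoter windows from RefSeq (GRCm38.p6). Tables used pandas 2.3.3 and numpy 2.4.6 in Python 3.11.15, and plots matplotlib 3.10.9.

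The members and gene lists were chosen with earlier results of these data known. Named genes were both targets, per class and direction the 5 with the largest difference (kept: the largest mean response) among genes with at least 5 FPKM in a group and calls in all 11 fits that leave out 1 library, up to 3 members per list by p, and 16 fixed genes. From these the text takes those it describes. Alternatives were other pseudocounts, filters and scalings, no trend, a replicate block, each library left out and, chosen after seeing the data, removal of a length trend.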

Additional observations from a re-analysis of the deposited data

Results flagged for a closer look

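The heat response differed between control siRNA and YAP/TAZ siRNA by the test of the difference itself (limma, adjusted p under 0.05) at 3102 genes with a higher and 1689 genes with a lower interaction value. Among the named genes, those below responded to heat in opposite called directions under the siRNAs, with the interaction value given for each.

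Rises under control siRNA that became falls were those of Trp53inp1 (-3.70), Bbc3 (-3.67), Btg2 (-3.54), Sesn2 (-3.11), P2rx7 (-3.05), Chac1 (-3.001), Cxcl10 (-2.48), Nfkbia (-1.87), Hmox1 (-1.81), Cdkn1a (-1.66), Ccn2 (-1.50), Ddit3 (-1.37) and Vgll4 (-1.29). Bhlhe40 and Bhlhe41, repressors of the circadian clock, had values of -1.16 and -1.15. Vegfa, a vessel growth factor, had -1.11, the zinc exporter gene Slc30a1 had -0.94 and the lysosomal proton pump subunit gene Atp6v1b2 had -0.64.

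Falls that became rises were those of Gmnn (1.42), Tubb3 (1.40), Gins1 (1.39), Uhrf1 (1.38), Snrpd1 (1.32), Gar1 (1.18), Nop2 (0.98), Cox7b (0.96), Mcm5 (0.94) and Hsf1 (0.41). The glycolysis enzyme gene Tpi1 had a value of 0.85. Some of these reversals did not hold under other scalings. With a common total Gmnn, Uhrf1, Tubb3, Snrpd1 and Hsf1 only lost their fall, and Nfkbia had a gained fall. With the median of ratios P2rx7 and Ccn2 only lost their rise, and Hsf1 had a gained rise. Ccn2 lay under 1 FPKM in every YAP/TAZ siRNA library. Groups held 2 or 3 libraries, too few to look for single outlying samples.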

How the results depend on the processing

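Of 113 named genes, 98 kept their call and the sign of the interaction under all 21 alternatives. For the genes ranked by class, calls in the 11 fits that leave out 1 library were a condition of being named. Of 101 called interactions 99 were called with the same sign under the 3 other scalings. Classes were less stable, since they need a call for each heat response: 38 of the 113 genes fell in another class under at least 1 of these scalings. Without a filter on low values 2796 interactions were higher and 3270 lower, and 3748 genes lost or reduced a response, of 29695 genes tested. With a filter at 5 FPKM 2694 were higher and 937 lower, and 2015 kept responses became 1289, of 8186 tested. Leaving out 1 library at a time gave 2070 to 3206 higher and 1225 to 1807 lower interactions. In the same fits 1653 to 2367 genes lost or reduced a response, 1646 to 2011 kept, 1104 to 1795 gained or enlarged and 476 to 748 reversed it. Leng1 was not called with a pseudocount of 0.1 (3.47, adjusted p = 0.050, limma). All of these lowest counts came without replicate 1 of the heated control cells, except the lowest kept count, which came without their replicate 3.

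With a replicate block 3385 interactions were higher and 1909 lower and 959 genes were reversed. Same-numbered libraries did not deviate together (15 correlations of -0.11 to 0.134), so the numbers were not taken to pair libraries.

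The named genes whose sign turned had no called interaction. They were Tyr (-0.018 with a common total, -0.20 with quantile normalization, -0.0039 with a pseudocount of 5), Egr1 (0.11 with a pseudocount of 0.1), and Lrrc4b, Golph3l and Yap1 with a pseudocount of 5 (-0.056, -0.027 and 0.0079). Yap1 was at 0.026 with the replicate block. Leaving out 1 library gave values of -0.44 to 0.33 for Yap1, -0.11 to 0.42 for Hk2 and -0.45 to 0.10 for Wwtr1. The causes were not tested. Depth limits genes near 1 FPKM, and with 2 heated control libraries each value there rests on few samples.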

Other observations

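Some gene groups outside the stress and growth programmes also differed. Of 14 circadian clock genes tested, 6 rose and 3 fell with heat under control siRNA, and 1 rose and 8 fell under YAP/TAZ siRNA. Over all genes 12.4% rose and 36.9% fell under control siRNA, and 18.6% rose and 31.7% fell under YAP/TAZ siRNA. Of the 14, 4 were reversed from a rise to a fall, against 2.57% of all genes. The interaction of the list was lower at 8 and higher at 0 (limma, adjusted p under 0.05), against 13.4% lower and 24.6% higher over all genes. The lower count was 8, 9 and 7 with a common total, the median of ratios and quantile normalization. Bhlhe40, a clock repressor that stress and hypoxia induce, was at 21.04, 20.3 and 19.9 FPKM unheated and 31.4 and 27.3 heated under control siRNA. Under YAP/TAZ siRNA it fell from 26.7, 27.999 and 26.1 to 15.9, 17.5 and 16.5 (interaction -1.16 ± 0.09 SE, adjusted p = 2.9e-05). Its paralogue Bhlhe41 started at 37.7 ± 0.461 FPKM (SD, n = 3) under YAP/TAZ siRNA, against 16.3 ± 0.603 (SD, n = 3) under control siRNA, and both siRNAs ended at nearly the same level after heat, 21.8 ± 0.414 (SD, n = 3) and 21.7 ± 1.94 (SD, n = 2).

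Of 23 cholesterol synthesis genes, 17 fell under control and 14 under YAP/TAZ siRNA, against 36.9% and 31.7% of all genes. The interaction was higher at 13 and lower at 1, against 24.6% and 13.4%, but at 6 and 2 with quantile normalization. Mvd, an enzyme of the mevalonate pathway, fell from 21.2, 19.3 and 21.2 to 9.85 and 10.99 FPKM under control siRNA and was at 28.01, 24.7 and 28.4 before and 28.5, 25.0 and 27.9 after heat under YAP/TAZ siRNA (0.92 ± 0.11, adjusted p = 0.00033). Nsdhl, a later enzyme of the pathway, had a reduced fall (0.70 ± 0.08, adjusted p = 0.00029). Of 27 glycolysis and hypoxia genes, 13 fell and 2 rose under control siRNA, and 5 fell and 9 rose under YAP/TAZ siRNA. Over all genes 36.9% fell and 12.4% rose under control siRNA, and 31.7% fell and 18.6% rose under YAP/TAZ siRNA. The interaction of the list was higher at 17 and lower at 3, against 24.6% and 13.4%, or 10 and 4 with quantile normalization. Slc2a1, the glucose transporter GLUT1, went from 17.5, 16.1 and 16.4 to 4.32 and 4.13 FPKM under control siRNA and from 10.3, 10.2 and 9.40 to 5.23, 4.79 and 5.18 under YAP/TAZ siRNA, so the heated groups lay close together (0.90 ± 0.08, adjusted p = 6.7e-05).

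The lysosome list was mixed in the deposited scale, with 2 higher and 10 lower interactions of 33 genes, against 24.6% and 13.4% of all genes. The lower counts were 13, 12 and 19 under the 3 other scalings. Atp6v1b2 averaged 55.4 ± 1.00 and 64.0 ± 2.295 FPKM under control siRNA and 35.0 ± 1.23 and 25.6 ± 0.276 under YAP/TAZ siRNA (SD, n = 3, 2, 3 and 3). Mtf1, the metal-responsive transcription factor, lost its rise: it went from 3.56, 3.63 and 3.04 to 10.3 and 10.6 FPKM under control siRNA and stayed between 3.11 and 3.63 in the 6 YAP/TAZ siRNA libraries (-1.30 ± 0.10, adjusted p = 2.5e-05). Mt2, a metallothionein, had a reduced fall (1.06 ± 0.27, adjusted p = 0.013) that was not called with quantile normalization (0.75, adjusted p = 0.059). Of 21 replication-dependent histone genes that passed the level filter, of 70 in the table, 16 rose and 2 fell under control siRNA. Under YAP/TAZ siRNA 15 rose and 5 fell. Over all genes 12.4% rose and 36.9% fell under control siRNA, and 18.6% rose and 31.7% fell under YAP/TAZ siRNA. In this list 11 kept a rise and 1 kept a fall, against 2.49% and 13.5% of all genes. Its interaction was higher at 4 and lower at 3, shares near the 24.6% and 13.4% of all genes.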
